A study of Mus musculus with 4 samples.

Results

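Dlk1 and 9 other imprinted genes that govern growth (Igf2, Igf2r, Peg3, Mest, Cdkn1c, Plagl1, Grb10, Ndn and Peg10) were read in 4 sorted cell populations of the mouse, each on 1 whole-transcript array. A gene was taken when a transcript cluster, the set of probes that reads 1 transcript, was paired with its symbol alone. Each of the 10 genes had 1 such cluster, so the account rests on 10 of 28856 clusters and 10 of 19938 genes. ESC-derived cells came from LMX1A::GFP knock-in mESCs made in 129SVEV lines, which grew as floating SFEBq aggregates and were sorted on day 9 by CORIN. The medium held FGF8b and SHH in the earlier days of culture only. Ascorbic acid and BDNF were among the additions of the last days before the sort, when KSR was left out. Both the CORIN+ and the CORIN- fraction were LMX1A::GFP+. Fetal cells came from the ventral midbrain (VM) of C57BL/6N embryos at E11.5, sorted into CORIN+ and CORIN- cells with no LMX1A gate. GFP stands at the Lmx1a locus, so both cultured populations are limited to cells that had switched on that midbrain gene. How many ESC clones and embryos were used is not given in the sources used here. CORIN is a cell-surface protease of the floor plate, the strip of ventral midline cells from which midbrain dopaminergic progenitors arise.

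Imprinted genes are transcribed from the allele of 1 parent. Many of them act on fetal growth, and as a rule those of the paternal allele promote it and those of the maternal allele restrain it. They lie in clusters that share imprinting control regions, whose DNA methylation is set in the germ line and kept through later divisions. In the developing brain several of them act on the balance between progenitor division and neuronal differentiation. An array signal sums both alleles, so imprinting itself was not measured.

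Corin had log2 signals of 13.10 in ESC-derived CORIN+ and 11.13 in ESC-derived CORIN- cells, and of 11.43 in fetal CORIN+ and 7.28 in fetal CORIN- cells, so it followed the sort in both sources. The median log2 signal per array was between 7.97 and 8.03. With 1 array per population there is no replicate, no error and no test, and every value below is a log2 signal or a difference of log2 signals on a single pair of arrays. Source, strain and the LMX1A gate differ together between culture and fetus and cannot be told apart. In sorted bulk cells, fewer cells of a type and less RNA per cell cannot be told apart either. The fetal CORIN+ array also carried markers of other cells: all 10 macrophage genes were above the fetal CORIN- array, with summed linear signals of 16436 and 1090, and all 12 mesenchyme genes were so too, with 23348 and 5074. In the 2 ESC-derived arrays the macrophage genes summed to 1017 (CORIN+) and 1024 (CORIN-), and the mesenchyme genes to 3943 and 6455. The 6 red blood cell genes measured summed to 639 (CORIN+) and 645 (CORIN-) in culture, against 25735 in fetal CORIN+ and 8244 in fetal CORIN- cells, so they mark both fetal arrays. The part of these cells in the differences of the 10 genes was not tested.

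The 10 genes did not move as a group between culture and fetus. Cdkn1c and Dlk1 were lower in ESC-derived than in fetal cells in both sorted fractions, Peg3 was higher in both, and Igf2 was past 2-fold only between the CORIN- populations, where it was higher in culture. Between the CORIN+ populations 1 of the 10 was at least 2-fold higher in culture, against 2.7% of all clusters, and 2 were at least 2-fold lower, against 3.86%. Between the CORIN- populations 2 were at least 2-fold higher, against 3.94%, and 2 were at least 2-fold lower, against 3.53%. All 10 genes lie above the 75th percentile of mean signal, and among the 7214 clusters there the shares were 2.27% higher and 2.61% lower between the CORIN+ populations, and 4.16% higher and 3.15% lower between the CORIN- populations. The median difference of the 10 genes was 0.10 (CORIN+) and 0.38 (CORIN-), against 0.02 and -0.02 over all clusters, whose differences had a scaled median absolute deviation of 0.245 and 0.259. The plot of signals by population shows the 10 genes side by side, and the plot of differences orders them.

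**Figure D1:**
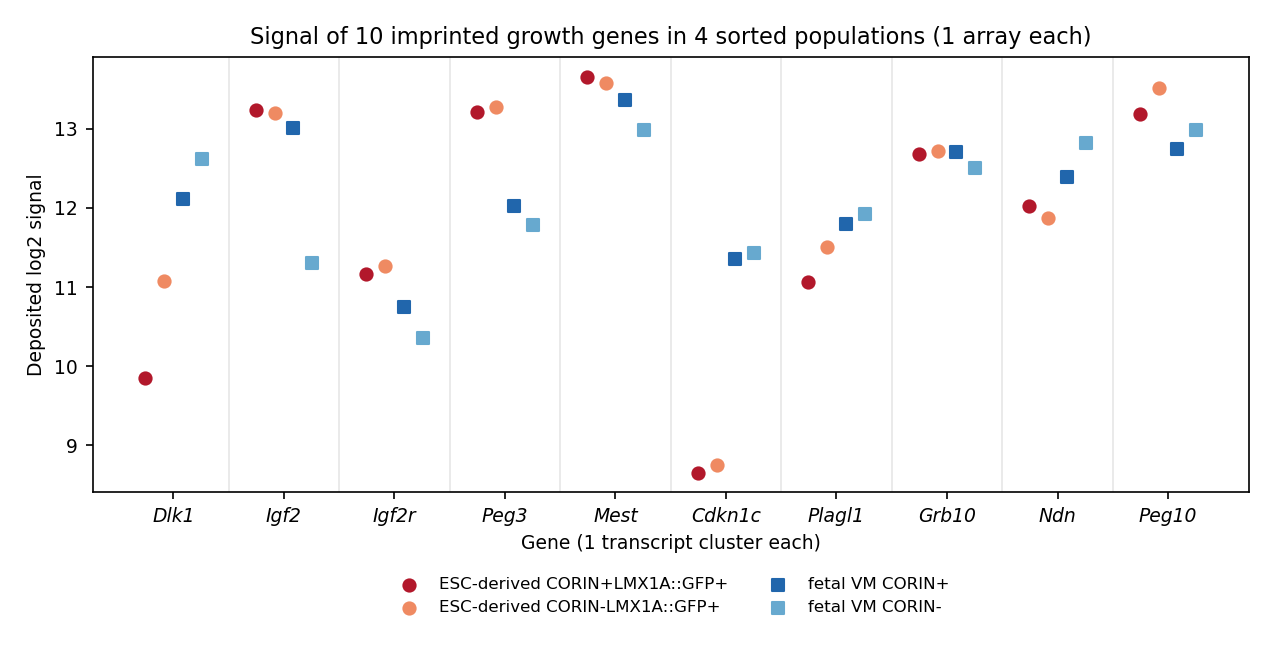
Deposited log2 signal (y axis) of the 10 imprinted growth genes (x axis), with circles for the ESC-derived and squares for the fetal populations, 1 array each and so no error bars. Cdkn1c lies at 8.66 and 8.75 in culture against 11.36 and 11.43 in the fetus, while the 4 signals of Grb10 all lie between 12.51 and 12.72; heights are comparable within a gene only.

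**Figure D2:**
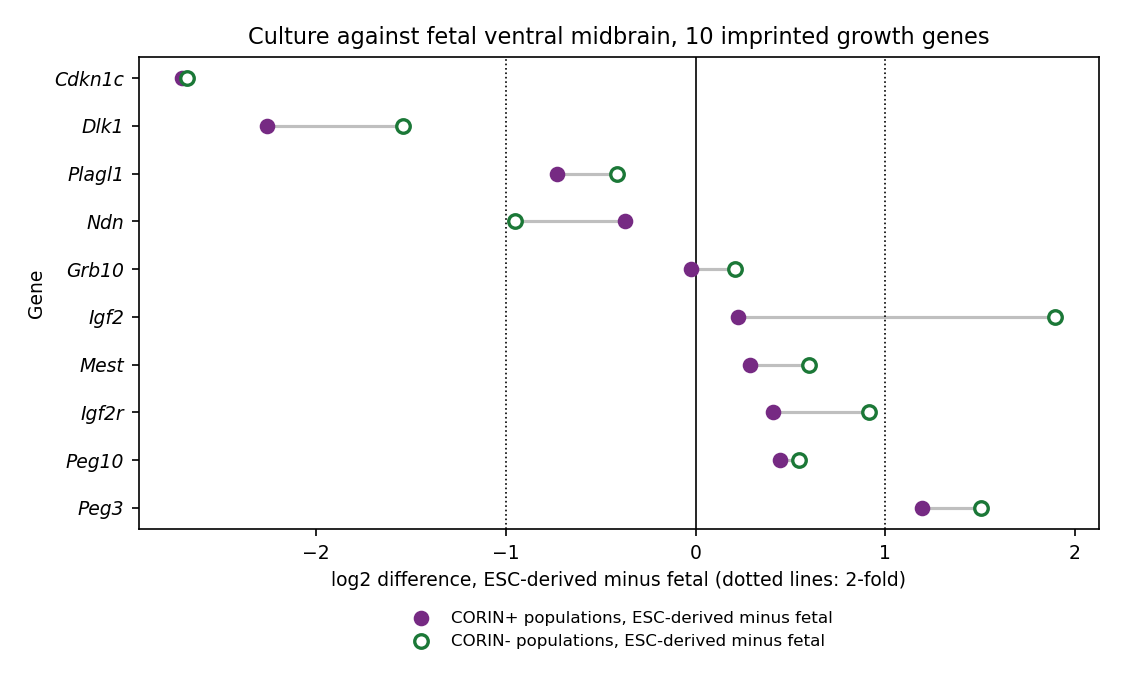
log2 difference, ESC-derived minus fetal (x axis), of each of the 10 genes (y axis, lowest CORIN+ difference at the top), with filled points for the CORIN+ and open points for the CORIN- populations and dotted lines at 2-fold. Cdkn1c and Dlk1 lie left of the 2-fold line on both counts, Peg3 lies right of it on both, and the points of Igf2 lie far apart at 0.22 and 1.90.

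Dlk1 encodes a transmembrane protein with EGF repeats of the Delta family, is expressed from the paternal allele, and is known as an inhibitor of adipocyte differentiation and as a gene of dopaminergic neurons. Its log2 signal was 9.85 in ESC-derived CORIN+ and 11.08 in ESC-derived CORIN- cells, against 12.11 in fetal CORIN+ and 12.62 in fetal CORIN- cells. Both cultured arrays lay below both fetal arrays, and within each source the CORIN+ array was the lower one. The difference from the fetus was -2.26 between the CORIN+ populations, a 4.79-fold lower signal, and -1.54 between the CORIN- populations, which is 2.91-fold. The first of these was the 187th lowest and the second the 433rd lowest of all 28856 clusters. Between the ESC-derived populations the difference was -1.23, and this was the 74th lowest of all clusters.

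Dlk1 heads an imprinted domain that runs to Dio3. Meg3, a long noncoding RNA of the maternal allele, follows Dlk1 in the domain, and methylation between them sets which allele uses which gene. Meg3 had log2 signals of 10.80 in ESC-derived CORIN+ and 11.27 in ESC-derived CORIN- cells, against 12.07 in fetal CORIN+ and 12.52 in fetal CORIN- cells. The order of the 4 arrays was that of Dlk1, and the differences from the fetus were -1.27 (CORIN+) and -1.25 (CORIN-). Here the paternally and the maternally expressed gene were both lower in culture. A promoter window of each gene is shown because the 2 signals moved together. Dlk1 has 1 window in the RefSeq table and Meg3 has 2, of which the first is printed. Each runs from 250 bases before to 50 bases after the RefSeq start in GRCm38.p6, with CG dinucleotides in capitals.
Dlk1 (chr12:109452573-109452872, + strand): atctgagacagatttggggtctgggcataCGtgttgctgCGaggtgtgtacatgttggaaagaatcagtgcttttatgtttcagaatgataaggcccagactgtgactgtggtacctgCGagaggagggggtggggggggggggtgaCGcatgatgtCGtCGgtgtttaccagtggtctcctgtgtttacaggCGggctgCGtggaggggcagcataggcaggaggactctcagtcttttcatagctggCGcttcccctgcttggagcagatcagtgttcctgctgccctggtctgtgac
Meg3 (chr12:109540746-109541045, + strand): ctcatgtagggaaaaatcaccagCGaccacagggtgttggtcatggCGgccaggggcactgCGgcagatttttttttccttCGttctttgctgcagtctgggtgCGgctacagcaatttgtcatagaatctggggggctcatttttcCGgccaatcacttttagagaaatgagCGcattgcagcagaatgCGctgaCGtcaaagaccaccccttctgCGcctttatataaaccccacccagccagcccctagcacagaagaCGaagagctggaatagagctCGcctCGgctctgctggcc
The Dlk1 window holds 9 CG dinucleotides, the first Meg3 window 13 and the second Meg3 window 1, against a median of 7 over 32851 windows of this length in the RefSeq table.

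The remaining genes read up to Dio3, microRNA genes aside, were also lower in culture, by unequal amounts. Rian, a maternal noncoding RNA that hosts small nucleolar RNAs, had log2 signals of 6.76 in ESC-derived CORIN+ and 7.29 in ESC-derived CORIN- cells, against 7.74 in fetal CORIN+ and 8.18 in fetal CORIN- cells, again in the order of Dlk1. DQ267102, which RefSeq annotates as a small nucleolar RNA, had differences of -1.46 (CORIN+) and -1.45 (CORIN-). Rtl1, a retrotransposon-derived gene of the paternal allele, had differences of -0.14 and -0.42. Dio3, the deiodinase that inactivates thyroid hormone, had log2 signals of 6.30 and 6.63 in culture against 6.49 and 6.73 in the fetus, with differences of -0.19 and -0.09. Dlk1, Meg3 and DQ267102 were past 2-fold in both fractions, and Rtl1 and Dio3 were under 2-fold in both. Rtl1 (7.42 to 7.84) and Dio3 (6.30 to 6.73) were below the median signal of every array, which leaves little room to see a drop. DQ267101 (-0.49 and -0.56) and AF357341 (-0.19 and -0.29) were dimmer still and also under 2-fold. Rian, DQ267102, Magel2, Usp29, Sgce, Pon3 and the other genes outside the 10 that lie under 2-fold in one of the comparisons, and the microRNA genes below, were chosen for naming after their values had been seen.

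The domain also holds a large group of maternally expressed microRNA genes. Of the 40 with a cluster of their own, 39 had a lower signal in ESC-derived CORIN+ than in fetal CORIN+ cells, and all 40 had a lower signal in ESC-derived CORIN- than in fetal CORIN- cells. Their median differences were -0.38 (CORIN+) and -0.41 (CORIN-), and 1 and 0 of them were at least 2-fold lower. Of the 260 other microRNA genes on the array, 136 and 161 were lower in culture, with medians of -0.01 and -0.05. These clusters are dim, with a median mean signal of 6.61 within the domain and 6.42 outside it, and the whole-transcript labelling reads RNA that carries the hairpin, so mature microRNAs were not measured. The clusters share their host transcripts and are not independent of each other. The 3 whose smaller drop was the deepest were Mir382 (-1.10 and -0.85), Mir377 (-0.94 and -0.84) and Mir300 (-0.98 and -0.70). Their mature forms are shown to identify them, from RefSeq on GRCm38.p6, with the seed (bases 2 to 8) in capitals.
mmu-miR-382-3p (chr12:109733819-109733840, + strand): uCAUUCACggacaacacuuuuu
mmu-miR-382-5p (chr12:109733781-109733802, + strand): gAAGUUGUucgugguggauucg
mmu-miR-377-3p (chr12:109740553-109740574, + strand): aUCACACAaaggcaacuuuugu
mmu-miR-377-5p (chr12:109740515-109740536, + strand): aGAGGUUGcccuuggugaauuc
mmu-miR-300-3p (chr12:109724363-109724384, + strand): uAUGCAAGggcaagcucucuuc
mmu-miR-300-5p (chr12:109724318-109724339, + strand): uUGAAGAGagguuauccuuugu
No 2 of these 6 mature forms share a seed.

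**Figure D3:**
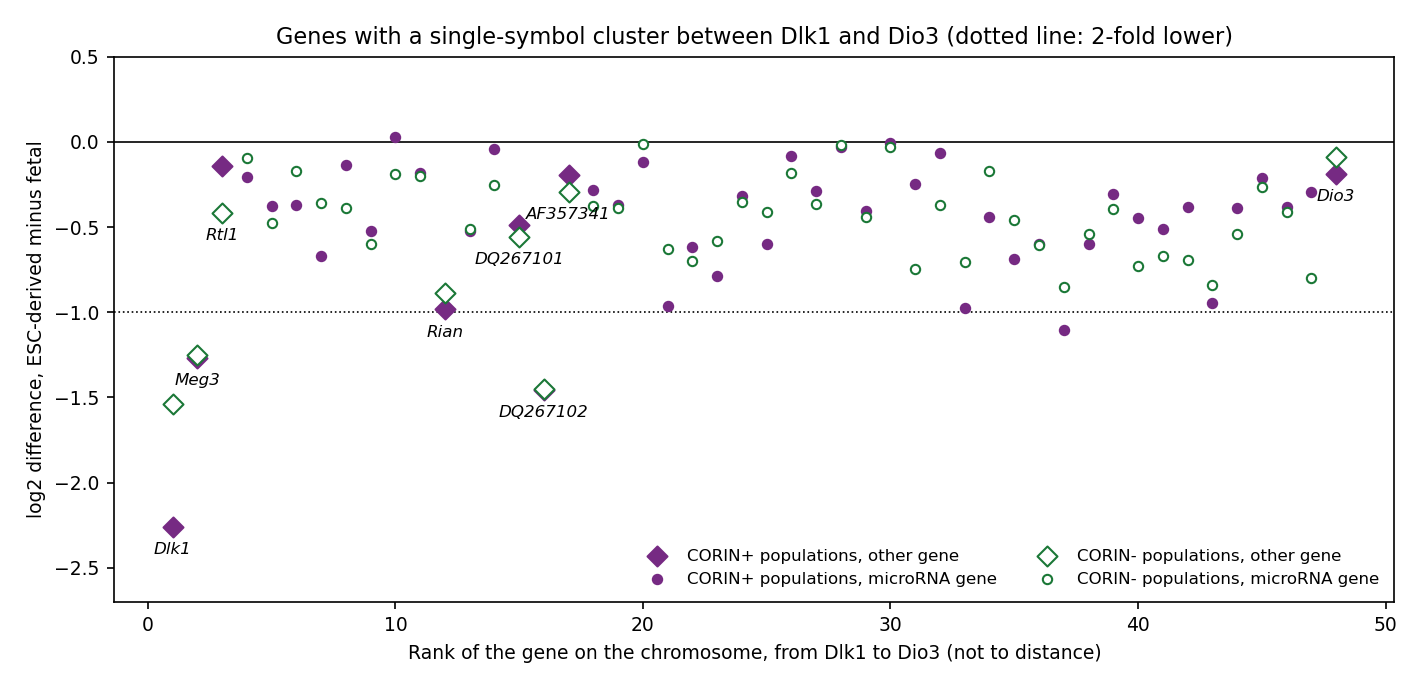
log2 difference, ESC-derived minus fetal (y axis), of the genes with a cluster of their own from Dlk1 to Dio3, by rank along the chromosome (x axis, not to distance), with diamonds for other genes, circles for microRNA genes, filled symbols for the CORIN+ and open symbols for the CORIN- populations. Apart from 1 microRNA gene at 0.03, every point lies below 0. Dlk1 is the lowest at -2.26 (CORIN+), Dio3 lies at -0.19 and -0.09, and some microRNA genes lie nearer 0, such as Mir376c at -0.01 and -0.03.

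Dlk1 belongs to the family of Notch ligands and their relatives, though it lacks the domain by which true ligands activate the receptor. Of 7 such genes 3 were at least 2-fold lower in culture between the CORIN+ populations and 2 between the CORIN- populations, and none was higher. The shares of all clusters at least 2-fold lower were 3.86% (CORIN+) and 3.53% (CORIN-). Dll1, a Notch ligand of neurogenic cells, had differences of -1.05 (CORIN+) and -1.08 (CORIN-), and Dner, a neuronal member with EGF repeats, of -1.44 and -1.92. Dlk2, the nearest relative of Dlk1, had log2 signals of 8.01 and 8.08 in culture against 8.21 and 8.30 in the fetus, so its differences of -0.20 and -0.22 stayed within the spread over all clusters. Neuronal markers moved with Dlk1: all 10 were lower in culture in both fractions, 8 and 7 of them at least 2-fold, with median differences of -1.49 and -1.38. Their median log2 signal was 9.998 in ESC-derived CORIN+ and 10.81 in ESC-derived CORIN- cells, against 11.66 in fetal CORIN+ and 12.24 in fetal CORIN- cells, which is the order of Dlk1. Tubb3, the neuronal tubulin, had differences of -2.17 and -2.12, Elavl3, an RNA-binding protein of neurons, -2.26 and -1.76, Dcx, a microtubule protein of migrating neurons, -1.95 and -1.83, and Stmn2, another microtubule regulator, -2.01 and -1.64. The part of neuronal content in the differences of Dlk1 and Meg3 was not tested.

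Cdkn1c encodes p57, a cyclin-dependent kinase inhibitor of the maternal allele that takes cells out of the cycle, and in the mouse midbrain it acts in the maturation of dopaminergic neurons. It had log2 signals of 8.66 in ESC-derived CORIN+ and 8.75 in ESC-derived CORIN- cells, against 11.36 in fetal CORIN+ and 11.43 in fetal CORIN- cells. The cultured arrays lay close together, as did the fetal arrays, with a wide gap between the pairs. The differences were -2.71 (CORIN+) and -2.68 (CORIN-), the 109th and the 72nd lowest of all clusters, and they were the largest among the 10 genes in both fractions. The CORIN sort made little difference to it, with -0.09 between the ESC-derived and -0.07 between the fetal populations. The 10 neuronal markers were all lower in ESC-derived than in fetal cells as well, with the medians of -1.49 and -1.38 given above, and all lower in the CORIN+ array of each source, with medians of -0.63 in culture and -0.52 in the fetus. Of 9 neural progenitor genes, 6 were lower in culture and 3 higher (CORIN+), and 7 lower and 2 higher (CORIN-). Their medians were -0.62 (CORIN+) and -0.86 (CORIN-), and 0.05 (ESC-derived) and -0.06 (fetal) between the sorted fractions. Pax6 had culture-fetal differences of -3.27 and -4.34, Hes5 -1.97 and -2.76, and Fabp7 -1.40 and -2.20, while Hes1 had 1.31 and 1.68. The part of neuronal or progenitor content in the difference of Cdkn1c was not tested.

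The other cyclin-dependent kinase inhibitors that were measured did not share this drop. None of the 6 was at least 2-fold apart between culture and fetus. Few clusters were at least 2-fold lower in any case, 3.86% (CORIN+) and 3.53% (CORIN-) of all. Their differences ran between -0.20 and 0.41 (CORIN+) and between -0.39 and 0.57 (CORIN-). Cdkn1a had no cluster paired with its symbol alone and was not measured. Cdkn2a (7.12 to 7.26) and Cdkn2b (7.53 to 7.68) were below the median signal of every array, which leaves little room to see a drop. Cdkn1b (p27), of the same family as p57, had log2 signals of 11.97 and 11.61 in culture against 11.56 and 11.52 in the fetus. Phlda2 and Kcnq1, imprinted neighbours of Cdkn1c, did not show it either, but both were dim. Phlda2, a maternal gene that restrains placental growth, had differences of 0.00 (CORIN+) and 1.14 (CORIN-), and Kcnq1 of 0.00 and -0.09. Kcnq1 had log2 signals between 7.27 and 7.36. Phlda2 was at 7.84 in ESC-derived CORIN+, 7.84 in fetal CORIN+ and 7.64 in fetal CORIN- cells, below the medians of these arrays. Only ESC-derived CORIN- cells, at 8.78, were above. Little room was left to see a drop in either gene.

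Igf2 encodes the fetal growth ligand of this axis and is expressed from the paternal allele in most tissues. Its log2 signal was 13.24 in ESC-derived CORIN+ and 13.20 in ESC-derived CORIN- cells, against 13.01 in fetal CORIN+ and 11.30 in fetal CORIN- cells. Fetal CORIN- cells alone were low, and the other 3 arrays lay between 13.01 and 13.24. The difference from the fetus was 0.22 between the CORIN+ populations and 1.90, a 3.72-fold higher signal, between the CORIN- populations, the 242nd highest of all clusters. In the fetus Igf2 was 3.27-fold higher in CORIN+ than in CORIN- cells. The mesenchyme list moved with that fetal difference, since 12 of 12 genes were past 2-fold in the same direction, against 2.67% of all clusters, with a median of 2.12. It was not alone: 9 of 10 macrophage genes (median 3.72) and 4 of 6 red blood cell genes (median 1.32) were past 2-fold in that direction. Of 13 floor plate and midbrain dopaminergic progenitor genes, 4 were so too (median 0.55). Corin, the gene of the sort itself, is among these 4, so its place there was set by the sort. The culture arrays, where Igf2 was as high, had median mesenchyme signals of 8.01 (CORIN+) and 9.06 (CORIN-), against 10.92 in fetal CORIN+ and 8.67 in fetal CORIN- cells, and 11 of the 12 genes were lower in ESC-derived than in fetal CORIN+ cells. The part of mesenchyme, or of any other of these cell types, in the fetal signal of Igf2 was not tested.

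Igf2r encodes the mannose 6-phosphate receptor, which takes IGF2 up and leads it to the lysosome, and is expressed from the maternal allele in mouse. It had log2 signals of 11.16 in ESC-derived CORIN+ and 11.27 in ESC-derived CORIN- cells, against 10.75 in fetal CORIN+ and 10.36 in fetal CORIN- cells. Both cultured arrays lay above both fetal arrays, by 0.41 (CORIN+) and 0.92 (CORIN-), under 2-fold. Airn, the paternal noncoding RNA that overlaps Igf2r on the opposite strand, had differences of -1.32 and -0.10. Whether the clusters separate the strands is not given in the sources used here. Of 9 other genes of lysosomal sorting none was at least 2-fold apart, and their medians were 0.24 and 0.12. At least 2-fold higher were 2.7% (CORIN+) and 3.94% (CORIN-) of all clusters, and 3.86% and 3.53% were lower.

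Grb10, a maternal adaptor in most tissues and a paternal one in neurons, binds the insulin and IGF1 receptors and restrains their signal. It was the steadiest of the 10 genes, with log2 signals of 12.68 in ESC-derived CORIN+ and 12.72 in ESC-derived CORIN- cells, against 12.71 in fetal CORIN+ and 12.51 in fetal CORIN- cells, and differences of -0.03 and 0.21. Cobl, an actin nucleator beside Grb10, was at 10.32 and 10.22 in culture against 8.95 and 7.88 in the fetus, with differences of 1.37 and 2.33, so the steady signal did not extend to this neighbour. Plagl1, a paternally expressed zinc-finger transcription factor that regulates other imprinted genes in mouse, had log2 signals of 11.07 in ESC-derived CORIN+ and 11.51 in ESC-derived CORIN- cells, against 11.80 in fetal CORIN+ and 11.92 in fetal CORIN- cells. The order of its 4 arrays was that of Dlk1, with smaller differences of -0.73 and -0.42.

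Among 25 measured genes of insulin and IGF signalling, 1 was at least 2-fold higher and 1 lower in culture between the CORIN+ populations, and 6 were higher and 0 lower between the CORIN- populations. Their medians were 0.09 and 0.17. All clusters had shares of 2.7% higher and 3.86% lower (CORIN+), and 3.94% higher and 3.53% lower (CORIN-). Pik3r1, the regulatory subunit of phosphoinositide 3-kinase, was higher in both, at 12.38 and 12.50 in culture against 11.21 and 11.29 in the fetus. Igf1, the other ligand, had a difference of -3.42 between the CORIN+ and -0.40 between the CORIN- populations, and its log2 signal of 10.21 in fetal CORIN+ cells stood above the other 3 arrays, which lay between 6.79 and 7.82. The receptor Igf1r stayed between 11.56 and 11.71 in all 4 arrays. The RNA-binding proteins Igf2bp1 and Igf2bp3, which bind Igf2 mRNA, had differences between -0.02 and 0.30.

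Peg3 encodes a zinc-finger protein of the paternal allele that acts on growth and, in the mouse, on maternal care. Its log2 signal was 13.21 in ESC-derived CORIN+ and 13.28 in ESC-derived CORIN- cells, against 12.02 in fetal CORIN+ and 11.78 in fetal CORIN- cells. The cultured pair lay above the fetal pair with no overlap, by 1.20 (CORIN+) and 1.51 (CORIN-), which is 2.29-fold and 2.84-fold. Peg3 alone of the 10 genes was at least 2-fold higher in culture in both fractions. Of 13 floor plate and midbrain dopaminergic progenitor genes measured, 10 (CORIN+) and 11 (CORIN-) were higher in culture, and 3 and 2 lower. Their medians were 0.98 and 1.22, with En2 the lowest at -4.67 and -4.09. The part of floor plate cells in the differences of Peg3 was not tested. The neighbours of Peg3 did not follow in one direction. Usp29, a paternal gene that shares the promoter region of Peg3, had log2 signals of 9.26 and 9.49 in culture against 8.06 and 9.26 in the fetus, so it was higher by 1.19 between the CORIN+ and by 0.24 between the CORIN- populations. Zim1, a maternal zinc-finger gene of the same domain, had 7.61 and 7.32 in culture against 8.81 and 8.77 in the fetus, and its differences of -1.20 and -1.45 were close in size to those of Peg3 and opposite in sign. The promoter window of Peg3 is shown because it is the only one of 14 windows of 8 of the 10 genes that holds GGGGCCCC, the core of the PLAGL1 recognition sequence, which reads the same on both strands.
Peg3 (chr7:6730370-6730669, - strand): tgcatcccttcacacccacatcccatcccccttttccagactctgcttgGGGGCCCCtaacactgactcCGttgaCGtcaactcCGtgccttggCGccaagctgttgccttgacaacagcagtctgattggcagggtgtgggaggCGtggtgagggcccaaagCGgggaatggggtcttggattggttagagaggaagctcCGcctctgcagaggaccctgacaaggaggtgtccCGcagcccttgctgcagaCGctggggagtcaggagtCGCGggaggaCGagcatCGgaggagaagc
Capitals mark GGGGCCCC, which begins 201 bases before the start, and the 13 CG dinucleotides. The same letters occur in 1.08% of the 32851 windows in the RefSeq table. Cdkn1c and Peg10 had no entry there.

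Mest, a paternal gene for a hydrolase-like protein of mesoderm and brain, had the log2 signals 13.66 in ESC-derived CORIN+ and 13.58 in ESC-derived CORIN- cells, against 13.37 in fetal CORIN+ and 12.99 in fetal CORIN- cells. Both differences were positive, 0.29 and 0.60, and under 2-fold. Peg10, a paternal gene derived from a retrotransposon and needed for the placenta, had 13.19 and 13.52 in culture against 12.74 and 12.98 in the fetus, with differences of 0.44 and 0.55. Of 9 other measured genes of the Peg10 domain, 7 had positive differences in both fractions, 4 of them above those of Peg10 in both, and 2 had negative ones in both. Sgce, a sarcoglycan that starts beside Peg10 on the opposite strand, had differences of 0.93 and 0.85. Pon2, a paraoxonase, had log2 signals of 10.71 and 9.77 in culture against 9.32 and 8.32 in the fetus, and Pon3, another, 9.60 and 8.70 against 8.64 and 6.92. Asb4, which takes part in protein ubiquitination, had differences of 0.48 and 1.34, while Calcr, the calcitonin receptor, had -0.36 and -1.22. Ppp1r9a (0.20 and 0.21), Pon1 (0.37 and 0.37) and Casd1 (0.43 and 0.20) did not go beyond Peg10 in either, and Tfpi2 had -0.16 and -0.13.

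Mest and Igf2 each carry a microRNA gene in an intron, and their mature forms are shown because the pairs allow host and microRNA cluster to be set side by side.
mmu-miR-335-3p (chr6:30741354-30741375, + strand): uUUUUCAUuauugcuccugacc
mmu-miR-335-5p (chr6:30741314-30741336, + strand): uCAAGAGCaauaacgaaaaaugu
mmu-miR-483-3p (chr7:142654932-142654952, - strand): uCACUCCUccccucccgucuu
mmu-miR-483-5p (chr7:142654968-142654989, - strand): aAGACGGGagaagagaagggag
The Mir335 cluster had differences of 0.59 (CORIN+) and 0.56 (CORIN-), above 0 like those of its host Mest. The Mir483 cluster had -0.15 and -0.15, where its host Igf2 had 0.22 and 1.90. Both clusters were far dimmer than their hosts, with log2 signals of 5.94 to 6.78 (Mir335) and 8.29 to 8.45 (Mir483). Like the microRNA clusters above they read RNA that carries the hairpin, so mature forms were not measured.

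Ndn encodes necdin, a paternal MAGE-family protein that restrains division and is abundant in postmitotic neurons. It had log2 signals of 12.02 in ESC-derived CORIN+ and 11.87 in ESC-derived CORIN- cells, against 12.39 in fetal CORIN+ and 12.82 in fetal CORIN- cells. Both cultured arrays lay below both fetal arrays, with differences of -0.37 and -0.95, under 2-fold, against medians of -1.49 and -1.38 for the neuronal markers. Magel2, a MAGE-family gene beside it, had 8.68 and 9.76 in culture against 9.73 and 10.69 in the fetus, with differences of -1.06 and -0.93. Between the ESC-derived populations Magel2 had a difference of -1.09 and Ndn one of 0.15. Mkrn3, a ring-finger gene of the domain, had differences of -0.19 and -0.82.

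Between the sorted fractions of one source the 10 genes differed less. In the ESC-derived pair 0 of the 10 were at least 2-fold higher in CORIN+ than in CORIN- cells, against 0.353% of all clusters, and 1, Dlk1, was at least 2-fold lower, against 0.468%. In the fetal pair 1, Igf2, was at least 2-fold higher in CORIN+ cells, against 2.67%, and 0 were at least 2-fold lower, against 0.672%. The medians of the 10 genes were -0.08 (ESC-derived) and 0.07 (fetal), against 0.00 and -0.04 over all clusters. After Dlk1, the next lowest in ESC-derived CORIN+ cells were Plagl1 at -0.43 and Peg10 at -0.34, and the lowest in fetal CORIN+ cells were Dlk1 at -0.51 and Ndn at -0.42. Markers of pluripotent cells were higher in ESC-derived CORIN- cells, where their summed linear signal was 5084, against 1363 in ESC-derived CORIN+ cells.

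The neighbours of the 10 genes, listed by place, and imprinted genes elsewhere gave no common direction. Of 37 measured neighbours of the 10 genes 3 were at least 2-fold higher and 4 lower in culture between the CORIN+ populations, and 5 were higher and 3 lower between the CORIN- populations, with medians of 0.00 and -0.08. Of 22 imprinted genes of other loci, 1 was higher and 2 lower between the CORIN+ populations, and 3 were higher and 1 lower between the CORIN- populations, with medians of 0.19 and 0.19. Over all clusters the shares were 2.7% higher and 3.86% lower (CORIN+), and 3.94% higher and 3.53% lower (CORIN-). Nnat, neuronatin, a paternal gene of the developing brain, stayed near level at 13.12 and 13.76 in culture against 13.31 and 13.60 in the fetus. Slc38a4, an amino acid transporter of the paternal allele, had the pattern of Igf2, with 10.73 and 11.24 in culture against 10.48 in fetal CORIN+ and 8.17 in fetal CORIN- cells. Impact, a paternal regulator of translation, had differences of 1.01 and 0.99. The plot of both differences sets these genes among all clusters.

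**Figure D4:**
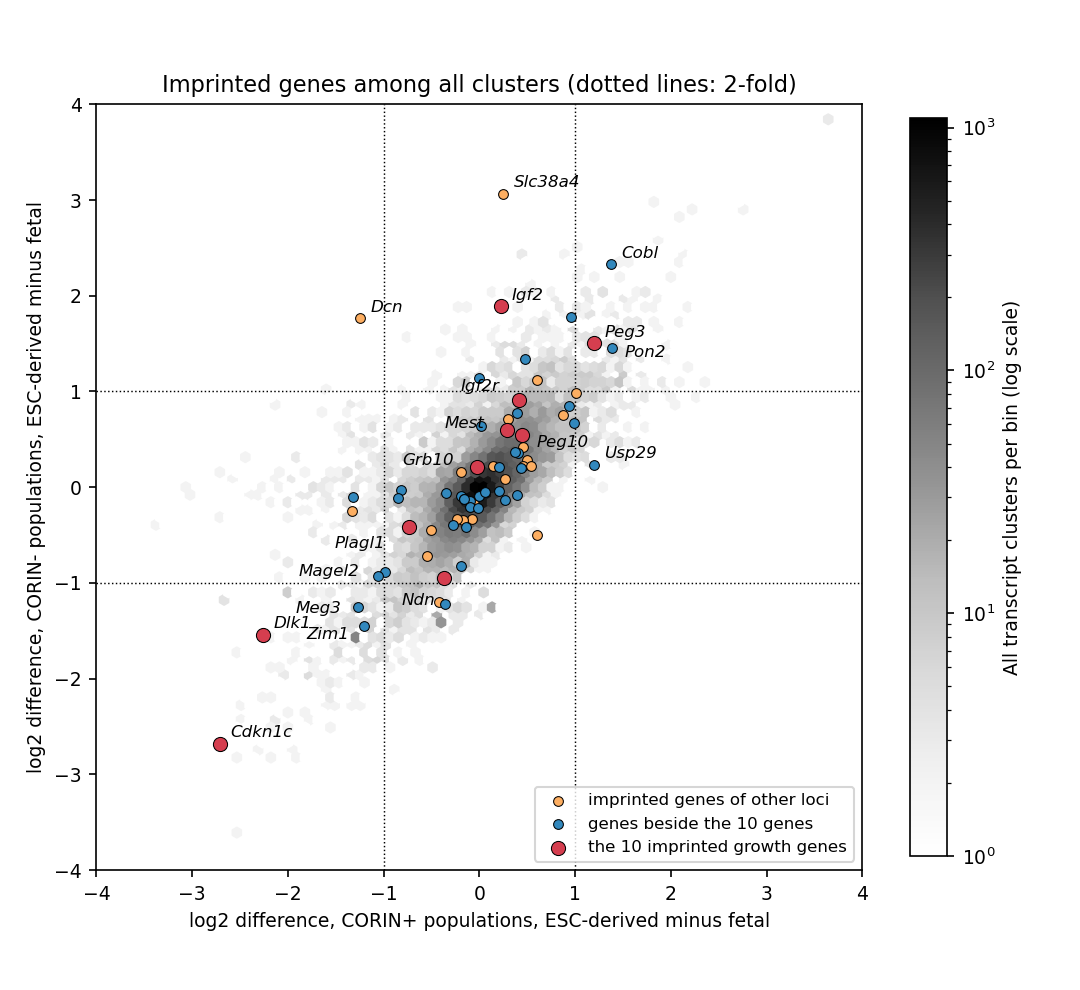
log2 difference, ESC-derived minus fetal, of the CORIN+ populations (x axis) against that of the CORIN- populations (y axis), with red points for the 10 genes, blue for 37 neighbours, orange for 22 imprinted genes of other loci and grey bins for all clusters within the axes. Cdkn1c (-2.71, -2.68) and Dlk1 (-2.26, -1.54) lie at the lower left, Peg3 (1.20, 1.51) at the upper right, and Igf2 (0.22, 1.90) and Slc38a4 (0.25, 3.07) above the centre.

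Genes that set or keep imprints were measured as well. Of 18, none was at least 2-fold apart between the CORIN+ populations, and 1, Dnmt3l, a cofactor of de novo methylation in germ cells and early embryos, was higher in ESC-derived CORIN- cells, at a log2 signal of 8.60 against 6.35 in fetal CORIN- cells. Among all clusters, 3.94% were at least 2-fold higher in culture between the CORIN- populations. Dnmt3l was at 6.48 in ESC-derived CORIN+ cells, so 1 array alone was high. Markers of pluripotent cells were high in the same array, with a median of 1.38 against fetal CORIN- cells, and their part in the signal of Dnmt3l was not tested. The maintenance methyltransferase Dnmt1 lay between 11.54 and 11.74 in all 4 arrays, the imprint-guarding zinc-finger gene Zfp57 between 11.98 and 12.25, and its partner Trim28 between 12.20 and 12.36. Signals of these genes do not report the methylation of any imprint.

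The signals of 3 of the 10 genes were matched to all genes by the distance between their 4 log2 signals, each centred on its own mean. The 5 nearest to Dlk1 were Prmt8 (distance 0.127), a brain arginine methyltransferase, the glutamate transporter Slc1a2 (0.177), Elavl3 (0.189), the neuronal splicing regulator Srrm4 (0.196) and the cadherin Celsr3 (0.231). The 5 nearest to Igf2 were Tril (0.169), Cyba (0.181), a subunit of NADPH oxidase, the tropomyosin Tpm1 (0.205), Twist1 (0.212), a transcription factor of mesenchyme and a gene of the mesenchyme list, and the basement membrane gene Nid2 (0.229). Twist1 is the exception in that list, the 1 gene of 12 not lower in ESC-derived than in fetal CORIN+ cells, with a difference of 0.46. The 5 nearest to Cdkn1c were 1700048O20Rik (0.134), the glutamate receptor Grm3 (0.169), the anchoring protein Akap6 (0.284), Draxin (0.300), an axon guidance protein, and Cnpy1 (0.334). These distances rest on 4 arrays and only name the closest genes.

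**Figure D5:**
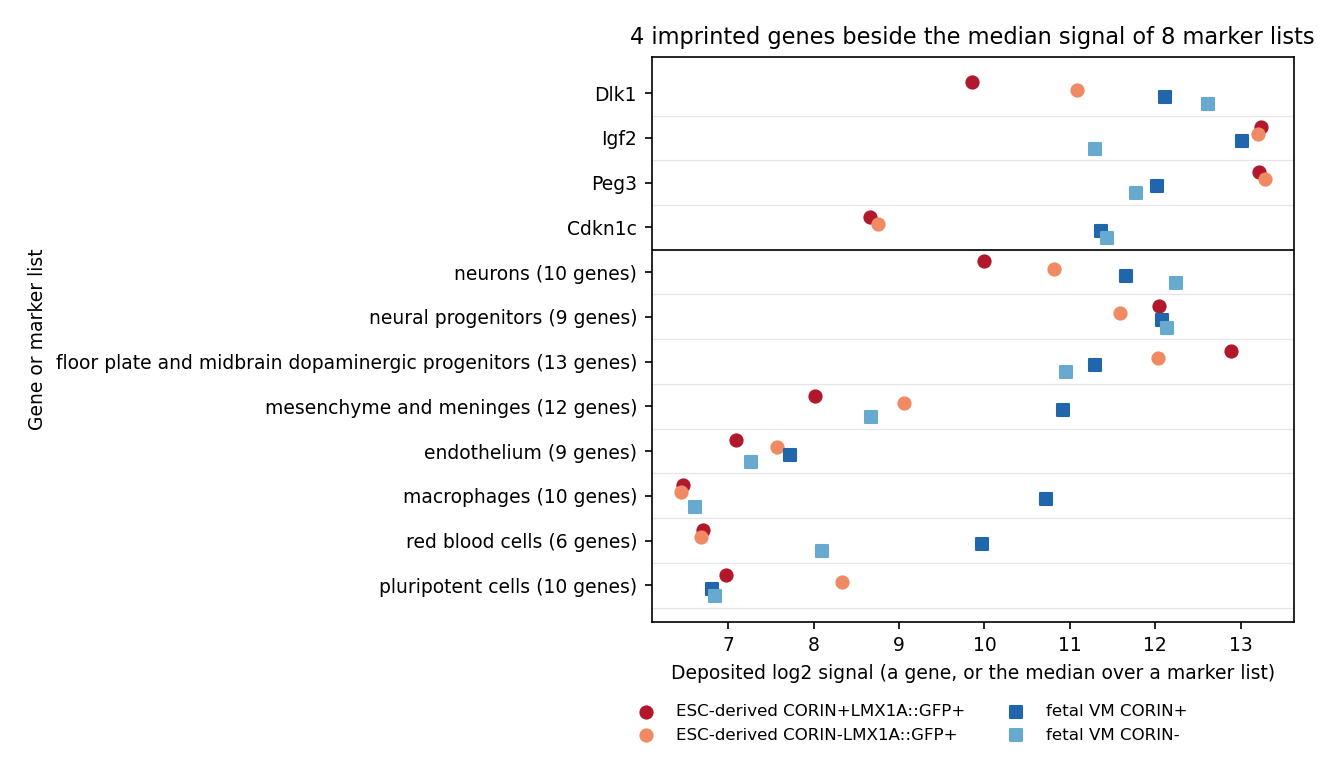
Log2 signal (x axis) of 4 of the genes above the line, and below it the median log2 signal of 8 marker lists, with circles for the ESC-derived and squares for the fetal populations, 1 array each. Neuronal markers take the same order as Dlk1, with medians of 9.998 and 10.81 in culture against 11.66 and 12.24 in the fetus, and mesenchyme, macrophage and red blood cell markers stand highest in fetal CORIN+ cells.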

How the data were processed

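RNA of 4 sorted populations was read on Affymetrix whole-transcript mouse arrays, 1 per population. The log2 signals of 28856 transcript clusters were deposited by the authors, who worked in GeneSpring. The values were read as log2 from their range of 4.38 to 14.5. For summarization, normalization between arrays, background and build, no method is given in the sources used here.

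GEO's platform annotation pairs 21789 clusters with 1 symbol, 1621 with several (not named here) and leaves 5446 unnamed here. For 21698 clusters the symbol was updated through the gene identifier with RefSeq names of GRCm38.p6. Differences were ESC-derived minus fetal and CORIN+ minus CORIN-, counted at 2-fold. A gene of several clusters was represented by the brightest. The number of arrays limits precision.

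The 10 genes and 15 further lists (203 of 225 entries measured) were chosen with earlier results of these data known. Named genes were the 10, up to 4 per list and direction at least 2-fold apart in both culture-fetal comparisons, 5 nearest profiles each for Dlk1, Igf2 and Cdkn1c, and Corin. Alternatives were quantile normalization, median centring, 32 added to the linear signal, 1.5-fold and 3-fold thresholds, the mean over a gene's clusters and a filter on dim clusters. The background above the 75th percentile of mean signal was added after the data were seen. Promoters and mature microRNAs came from RefSeq, GRCm38.p6. Python 3.11.15, numpy 2.4.6, pandas 2.3.3 and matplotlib 3.10.9 were used.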

Additional observations from a re-analysis of the deposited data

Results flagged for a closer look

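Among 69 imprinted genes searched, 1 moved in opposite directions by at least 1.5-fold. Dcn, decorin, a proteoglycan of connective tissue that is imprinted in the mouse placenta, was chosen after its values were seen. Its log2 difference from the fetus was -1.25 between the CORIN+ populations and 1.76 between the CORIN- populations. Likewise it was -0.829 in ESC-derived CORIN+ minus CORIN- cells and 2.18 in fetal CORIN+ minus CORIN- cells. With 1 array per population the difference between these contrasts was not tested. The mesenchyme list had medians of -2.86 and 0.26 in the first pair of contrasts and of -0.82 and 2.12 in the second, and its part in the values of Dcn was not tested.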

How the results depend on the processing

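Single-gene values were recomputed under quantile normalization, median centring, 32 added to the linear signal, the mean over a gene's clusters and the filter on dim clusters. All 200 recomputed values shifted by less than the scaled median absolute deviation of their comparison. The largest shift was 0.093 on the log2 scale, and the filter kept all 10 genes. Each of the 10 has 1 cluster, so the mean over clusters cannot change its value. The filter only drops genes, so it left the values of the 10 unchanged too. Median centring moves all 10 by 1 shared amount per comparison. These settings therefore say little about how firm the values are. Counts depended on the fold threshold. At 1.5-fold, 4 genes were higher between the CORIN- populations of culture and fetus, in place of 2 at 2-fold, against 8.99% of all clusters. Lower genes at 1.5-fold were 3 in both culture-fetal comparisons, in place of 2 and 2, against 7.03% (CORIN+) and 6.8% (CORIN-). At 3-fold, 0 were higher between the CORIN+ populations, in place of 1, against 0.846% of clusters. Between the CORIN- populations 1 was higher and 1 lower, in place of 2 and 2, against 1.35% and 1.22%. Between the ESC-derived populations 0 were lower at 3-fold, in place of 1, against 0.125%. No paired analysis was possible because each population has 1 array, and no array could be left out. A single array per population and an unknown normalization limit every value, and dim clusters such as the microRNA genes were read without detection calls.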
